A study of Mus musculus with 4 samples.

Results

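The 10 genes described here, Fos, Fosb, Jun, Junb, Egr1, Atf3, Ier2, Ier3, Dusp1 and Nr4a1, are immediate early genes that are also known as genes of the dissociation response. They were taken by symbol from the 31053 genes of the deposited single-cell matrices, where each symbol occurred once. The list was chosen with earlier results of these data known. All 4 libraries came from livers of diet-fed C57BL/6 mice, with no transgene or mutant allele in the labels, and each group was 1 library. The control library is labelled control diet and the low-AFP library CD-HFD. The high-AFP library is called control diet in its title and CD-HFD in its file name, so it is named here by its AFP label alone. The HCC library is a cell suspension from the region of hepatocellular carcinoma, with no diet in its title. AFP is alpha-fetoprotein, a fetal liver protein used as a tumour marker. The titles give an age of 15 months and the age field 17 months, and the number of animals behind a library is not given in the sources used here. Livers were perfused with collagenase, hepatocyte-rich fractions were purified on a Percoll gradient, the remaining cells were sorted for live cells, and both fractions were mixed in equal parts. The same text is given for the HCC library. The time and temperature of these steps are not given in the sources used here.

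Immediate early genes are transcribed within minutes of a stimulus, without new protein synthesis, through kinase cascades that act on factors already bound at their promoters. Fos, Fosb, Jun and Junb encode subunits of the AP-1 transcription factor, Atf3 a related stress factor, Egr1 a zinc finger factor and Nr4a1 an orphan nuclear receptor. Dusp1 is a phosphatase that switches the upstream kinases off again, and Ier2 and Ier3 are small early response proteins. In liver they are known both from regeneration and injury and from enzymatic cell isolation, which itself can start their transcription.

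The promoters of these genes were searched for elements of the kind through which such signals act. RefSeq promoters of build GRCm38.p6 were matched for 8 of the 10 genes, all except Egr1 and Ier2. Of 250 bases before each start, the core of the cyclic AMP response element (CRE), TGACG on either strand, was found in 6 of 8, against 17.9% of 27025 promoters of the same length. The 4 printed here were chosen for 2 reasons. Fos and Junb rose in the most classes in HCC against high-AFP. Dusp1 and Nr4a1 moved in opposite directions between classes in HCC against control. Each runs 5′ to 3′ on the gene's strand. Capitals mark the CRE core, read as TGACG or, on the other strand, CGTCA, the full CRE in Dusp1 and the TATA box in Fos.
Fos: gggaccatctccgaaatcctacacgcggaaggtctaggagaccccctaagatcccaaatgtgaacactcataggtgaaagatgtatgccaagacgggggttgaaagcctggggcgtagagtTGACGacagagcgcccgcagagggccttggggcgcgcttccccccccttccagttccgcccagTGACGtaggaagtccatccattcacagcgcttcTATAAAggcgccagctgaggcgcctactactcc
Junb: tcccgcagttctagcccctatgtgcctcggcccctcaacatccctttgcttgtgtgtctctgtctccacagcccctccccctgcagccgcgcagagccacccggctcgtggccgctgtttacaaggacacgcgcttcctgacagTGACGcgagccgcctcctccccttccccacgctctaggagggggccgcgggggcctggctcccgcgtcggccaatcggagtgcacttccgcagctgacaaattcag
Dusp1: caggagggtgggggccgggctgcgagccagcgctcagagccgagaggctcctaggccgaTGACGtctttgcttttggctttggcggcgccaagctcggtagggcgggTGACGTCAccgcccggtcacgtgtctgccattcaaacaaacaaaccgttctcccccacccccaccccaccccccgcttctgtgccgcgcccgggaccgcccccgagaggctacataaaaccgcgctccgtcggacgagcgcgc
Nr4a1: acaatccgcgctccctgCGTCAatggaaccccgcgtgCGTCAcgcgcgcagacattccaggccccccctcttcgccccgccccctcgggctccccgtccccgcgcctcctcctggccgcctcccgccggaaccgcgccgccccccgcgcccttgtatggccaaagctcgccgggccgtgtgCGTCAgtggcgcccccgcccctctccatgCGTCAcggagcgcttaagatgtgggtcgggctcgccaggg
The Fos window is chr12:85473640-85473889 on the plus strand, Junb chr8:84978749-84978998 on the minus strand, Dusp1 chr17:26508473-26508722 on the minus strand and Nr4a1 chr15:101266596-101266845 on the plus strand. The full CRE TGACGTCA, which contains the core on both strands, stood in Dusp1 alone of the 8 and in 1.62% of all promoters. The GC box GGGCGG stood in 7 of 8 against 32.9% of all, and TATAAA in Fos alone against 13% of all. An NF-kB site was found in 2 of 8 against 4.78%, and no AP-1 site TGANTCA (6.87% of all), CArG box (1.4%) or EGR site GCGTGGGCG (0.54%) was found in any of the 8 windows. A match is a stretch of letters and not a shown binding site. The 8 windows were 54.4% to 74.4% G and C, and the shares of all promoters were not matched for base content. Bases further upstream were not searched.

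Each library held 65326793 to 97393862 unique molecular identifiers (UMIs), and 5129 to 7902 cells per library, 26558 in all, were kept. Barcodes with over 30% mitochondrial UMIs were left out, which were 42.7%, 42.0%, 26.5% and 8.19% of all deposited barcodes. Of these, 2639, 1919, 1860 and 465 passed the gene and UMI limits, so this limit alone removed them. Here and below, 4 values in a row stand in library order, from control and the AFP libraries, low before high, to HCC. Of 26478 distinct barcodes, 80 occurred in more than 1 library. Clustering left the 10 genes and the related lists out, so no cluster was defined by them, and 3 of 39 clusters stayed unnamed while 4 were set apart as cycling cells. A level is the sum of a gene's UMIs over a class's cells, as counts per 1000000 nuclear-encoded UMIs (CPM), with an exact 95% Poisson interval that covers counting error only. The 3' kit counts 1 end per transcript, so a level does not grow with transcript length. In these sums fewer expressing cells and less RNA per cell cannot be told apart. With 1 library per group there is no replicate spread, no test was made, and every difference is between these libraries. A class was described where it held at least 50 cells in a library, and a difference is called where it was at least 2-fold after adding 10 CPM to both values, with at least 10 CPM in either.

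In the control library the genes were highest outside the hepatocytes. Their summed level was 11603 CPM (11307 to 11905) in cholangiocyte-like cells, the bile duct epithelium, which led 8 of the 10 genes. Mesenchymal-like (4934 CPM), macrophage-like (4587), endothelial-like (4118), monocyte-like (3478) and conventional dendritic cell-like cells (3157) followed. Hepatocyte-like cells were at 1791 CPM, T-like cells at 1329, B-like cells at 1189 and plasmacytoid dendritic cell-like cells at 754 (677 to 838). The lymphoid classes and hepatocyte-like cells thus lay below the duct, vessel and myeloid cells. The exceptions to the cholangiocyte lead were Dusp1, highest in endothelial-like cells (1199.9 CPM) and macrophage-like cells (1018 CPM), and Nr4a1, highest in monocyte-like cells (311 CPM). In HCC, where 44 cholangiocyte-like cells were too few to describe, neutrophil-like cells led 8 of the 10 genes with a summed level of 24288 CPM, 2.43% of all their nuclear-encoded UMIs. In the low-AFP library they were at 7556 CPM and in the high-AFP library at 6885, and control held only 45 of them.

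**Figure D1:**
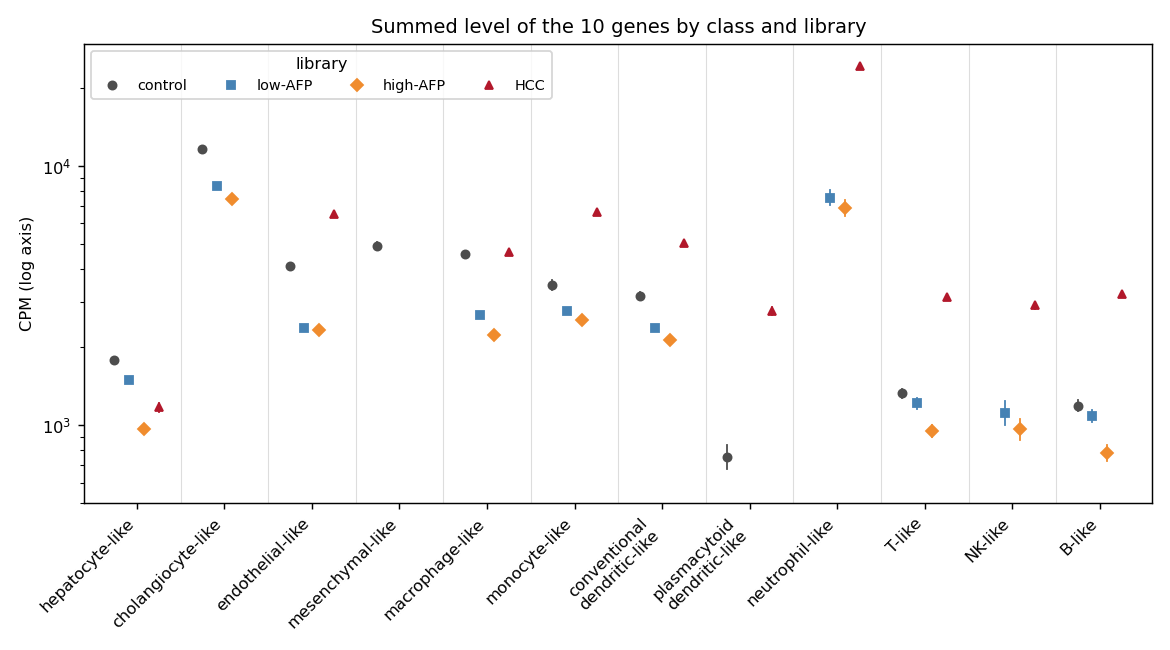
Summed level of the 10 genes in CPM (log axis) in each cell class, with 1 symbol per library and vertical lines for the exact 95% Poisson interval. In each of the 8 classes that low-AFP and high-AFP share with control, both lie below control, and HCC lies above high-AFP in all 9 classes compared, least in hepatocyte-like cells (1172 against 963 CPM).

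The low-AFP library was lower than control in every class compared, by small amounts. The median over 8 classes of the log2 fold of the summed level was -0.38, from -0.13 in T-like to -0.79 in endothelial-like cells (2380 against 4118 CPM), and no class reached 2-fold. Among pairs of gene and class, 1 of 76 measured was at least 2-fold higher and 5 were lower, against 0.874% and 0.829% of all 67162 pairs of gene and class. Of all 80 pairs, 63 lay below 0. The B-like value of -0.13 was not stable: it was 0.13 with cells thinned to 1000 UMIs and 0.01 within B-like cluster 13 alone.

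The high-AFP library was lower again. The median of the summed level was -0.62, from -0.44 in monocyte-like to -1.04 in macrophage-like cells, where it fell from 4587 to 2227 CPM. That was the only class past 2-fold, and centred on the median fold of all its genes the value was -0.87. Of 77 measured pairs 1 was at least 2-fold higher and 13 were lower, against 1.21% and 1.21% of all 67300 pairs, and 68 of 80 pairs lay below 0. Macrophage-like cells held 4 of these lower pairs, Egr1, Ier2, Dusp1 and Nr4a1, against 1.67% of all genes in that class. Most macrophage-like cells lay in the Clec4f-led cluster 10 in control (335 of 531) and in the Gpnmb-led cluster 7 in high-AFP (601 of 1183). The log2 fold of the summed level within single clusters was -1.01 in cluster 7, -1.13 in cluster 10 and -0.12 in the shallow cluster 18. Both AFP libraries were set against the same control library, so their shared direction is not independent.

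In HCC the direction turned. Against high-AFP the median of the summed level was 1.48, from 1.06 in macrophage-like to 2.02 in B-like cells (784 to 3210 CPM) over the 8 classes other than hepatocyte-like cells, each of which passed 2-fold with all its clusters together. Of 24 alternatives for the macrophage-like value 7 were short of 2-fold, from 0.54 as a mean over cells to 0.95 with more doublets removed, and within the shallow cluster 18 it was -0.94. The endothelial-like value was 0.96 within cluster 27, which held 73 of 104 HCC cells, and the conventional dendritic cell-like value 0.66 within cluster 24. B-like and T-like cells of HCC lay in other clusters than those of the other libraries. Of the B-like cells, 711 of 724 in HCC lay in cluster 14, led by the immunoglobulin genes Jchain, Igkc and Ighm and second in score for plasma cells, while 202 of 250 in control and 303 of 329 in high-AFP lay in cluster 13. T-like cells were in cluster 9 in control (419 of 429) and high-AFP (446 of 466), and in clusters 4 and 11 in HCC. No B-like or T-like cluster held 50 cells of both HCC and another library, so no fold within a cluster could be given, and the part of these clusters in the B-like and T-like differences was not tested. Of 87 measured pairs 50 were at least 2-fold higher and 1 was lower, against 2.75% and 6.1% of all 72255 pairs. In neutrophil-like cells 8 of the 10 genes rose, where 12.0% of all genes were called higher. Against control the median was 0.80. Plasmacytoid dendritic cell-like (754 to 2754 CPM), B-like (1189 to 3210) and T-like cells (1329 to 3126) were past 2-fold, monocyte-like cells were just short of it (3478 and 6664, log2 0.94), and macrophage-like cells had 4587 and 4648 CPM. The monocyte-like value was 1.09 with thinned cells. The conventional dendritic cell-like value was 0.67, with 0.81 in cluster 15 and 0.19 in cluster 24. Cluster 15, which scored higher for classical monocyte, held 397 of 581 of these cells in HCC and 54 of 127 in control. In HCC against control 31 of 77 measured pairs were at least 2-fold higher and 10 lower, against 3.21% and 6.0% of all 66345 pairs. Monocyte-like cells held 5 of the higher pairs, Fos, Fosb, Atf3, Ier3 and Dusp1, against 1.01% of all genes there. The comparison of HCC with control shares its control with the AFP comparisons.

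By the rule used, a shift was shared by all types where a gene was past 2-fold in 1 direction in every class compared, and a class with under 10 CPM in both libraries counted as not past it. No gene met this in any comparison. Over measured classes alone, Atf3 (6 of 6) and Ier3 (7 of 7) were past it, both higher in HCC against control, with the limits given under each gene. In 7 of the 40 combinations of gene and comparison exactly 1 class was past 2-fold. These were Ier3 in T-like cells and Dusp1 in macrophage-like cells in both AFP libraries, Nr4a1 in endothelial-like cells in low-AFP, Ier2 in macrophage-like cells in high-AFP, and Jun in endothelial-like cells in HCC against high-AFP. For Jun, 73 of 104 HCC cells were of cluster 27, against 86 of 1288 in high-AFP. How often other genes were past 2-fold in exactly 1 class, or in all, was not counted. The counts therefore describe the 10 genes and do not set them apart from other genes.

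**Figure D2:**
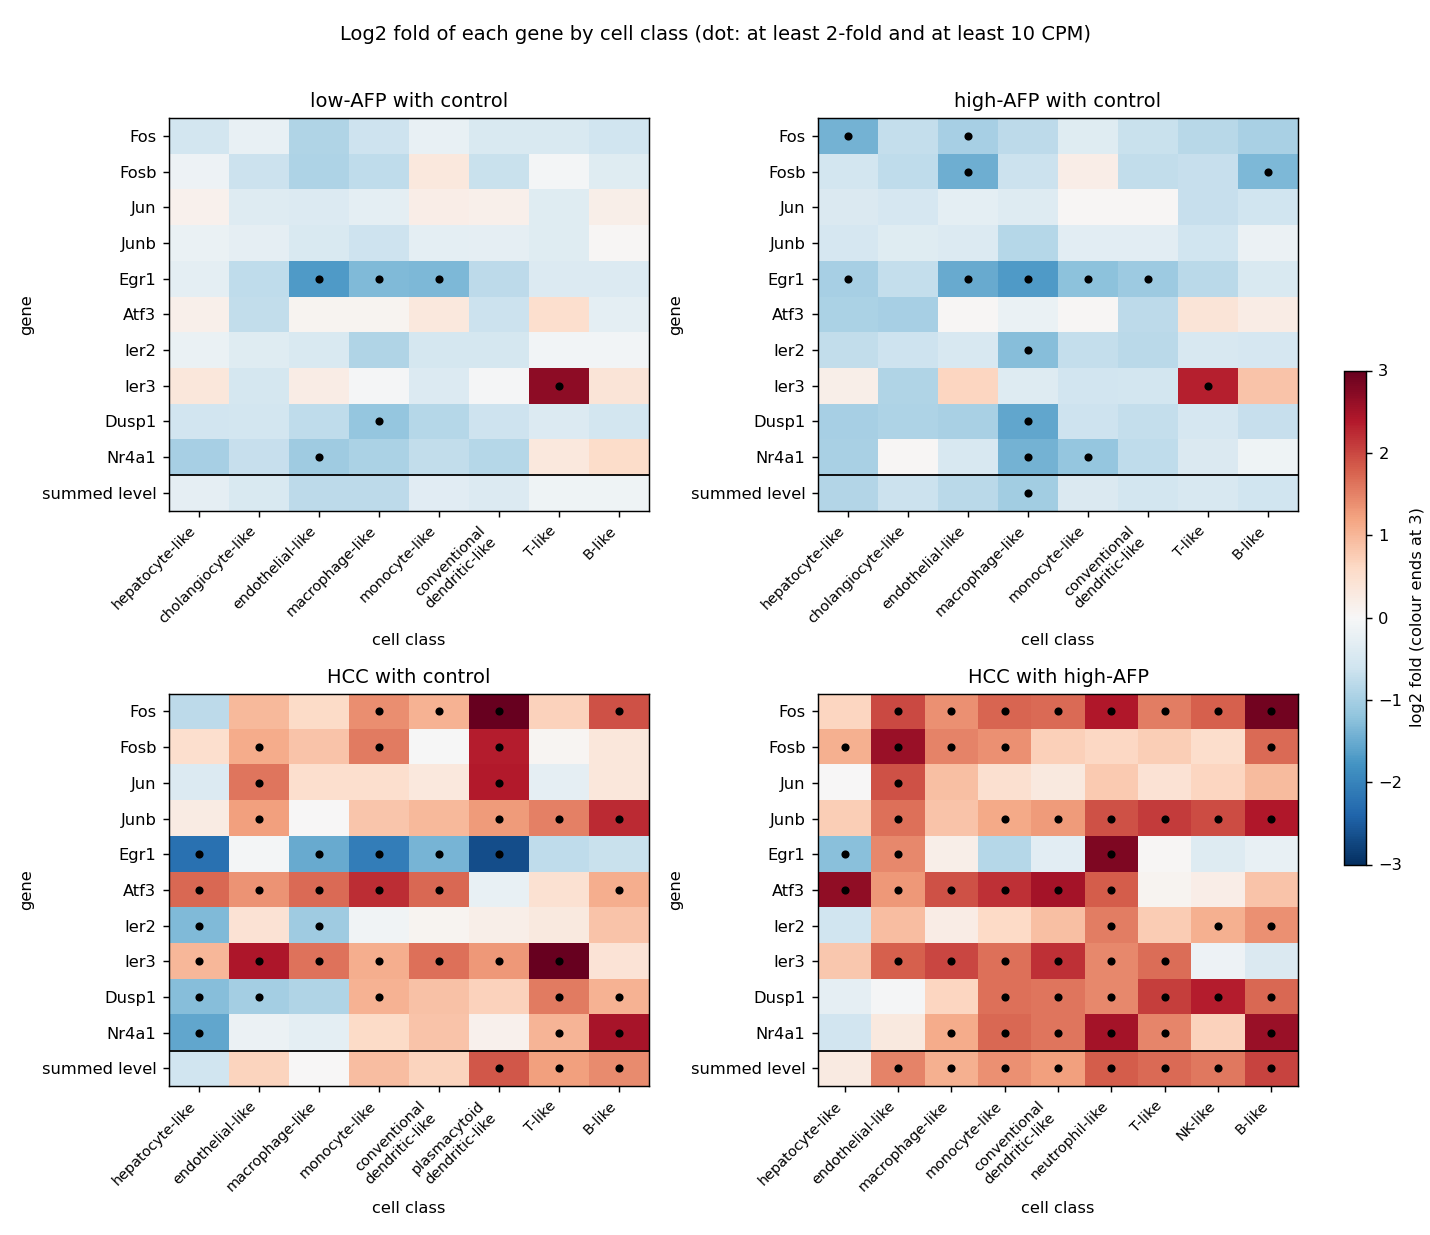
Log2 fold of each gene (rows) in each class (columns) for the 4 comparisons, with the summed level in the last row and a dot where the 2-fold rule was met. Ier3 in T-like cells is the only dotted red square in each AFP panel, and in the HCC panels red squares prevail (58 of 80 pairs above 0 against control) except in the Egr1 row and, against control, the hepatocyte-like column.

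Of the AP-1 subunits, Fos and Junb rose in the most classes. Fos in monocyte-like cells was 748, 643, 582 and 1986 CPM in library order. The 3 libraries outside HCC lay close together and HCC stood 2.65-fold above control (ratio interval 2.41 to 2.93). In B-like cells Fos was 186, 120, 89.1 and 726 CPM, and in plasmacytoid dendritic cell-like cells 134 CPM in control and 1181 in HCC. Against control Fos was past 2-fold higher in 4 of 8 classes and above control in 7, hepatocyte-like cells as named here being the exception. In neutrophil-like cells, not described in control, Fos was 1081, 868 and 4604 CPM in the other 3 libraries.

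Junb, a subunit that partners with Fos proteins, was above control in HCC in 8 of 8 classes, past 2-fold in 4. In T-like cells it was 545, 423, 359 and 1577 CPM, and in B-like cells 270.1, 278, 238 and 1301, with HCC far above the rest in both. These compare different clusters, with Junb at 1298 CPM in B-like cluster 14 of HCC and 271 in cluster 13 of control. The macrophage-like cells differed from this, with 873, 566, 478 and 879 CPM, HCC being at the control level (log2 0.01). Neutrophil-like cells held the highest value of Junb, 6110 CPM in HCC, while the AFP libraries had 2006 and 1617.

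Jun, the partner through which Fos proteins bind DNA, had smaller differences. Its median log2 fold against control was -0.08 and -0.41 in the AFP libraries, low before high, and 0.42 in HCC. It was past 2-fold in HCC in plasmacytoid dendritic cell-like cells (149 to 823 CPM) and endothelial-like cells, where it was 576, 430.2, 468 and 1775 CPM in library order. T-like cells were below control in all 3 other libraries, at 172, 132, 102 and 142 CPM. Fosb in endothelial-like cells was 207, 104, 68.1 and 461 CPM, lowest in high-AFP and highest in HCC. For Jun and Fosb alike, 73 of 104 HCC endothelial-like cells were of cluster 27, against 37 of 1583 in control. The part of this in their rise was not tested. In T-like cells Fosb was 81.0 CPM in control and 84.2 in HCC, a ratio of 1.04 (0.868 to 1.25).

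Atf3, which is induced by many kinds of cell stress, was low in lymphoid cells, at 2.38 to 7.64 CPM in T-like cells over the 4 libraries. In monocyte-like cells it was 99.6, 127, 102 and 501 CPM, and in conventional dendritic cell-like cells 83.0, 49.7, 44.2 and 298. In macrophage-like cells it was 107, 115, 91.9 and 370.4. HCC was the highest library in all 3 classes, with the mix of conventional dendritic cell-like clusters given above. Against control Atf3 was called higher in 6 of the 6 classes where it was measured. The value of hepatocyte-like cells as named here rests on 1 cell, as given below. The B-like values were low, 5.27 CPM in control and 22.3 in HCC, and the call was lost in 6 of 21 alternatives, with a lowest log2 fold of 0.39. Sized as described below, a leak of hepatocyte RNA would give 65.8% of that HCC level, although the hepatocyte-like level behind this estimate itself rests on that 1 cell. The endothelial-like call was lost in 2 and the macrophage-like one in 3 of 21 alternatives.

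Egr1 was the gene with the most lower values. It was below control in 8 of 8 classes in each of the 3 comparisons with control. The medians were -0.78, -1.04 and -1.46 in low-AFP, high-AFP and HCC, with 3, 5 and 5 classes past 2-fold lower. In monocyte-like cells Egr1 was 164, 57.7, 63.7 and 31.0 CPM in library order, lowest in the library where Fos was highest. In macrophage-like cells it was 672, 262, 199.8 and 228 CPM, and in conventional dendritic cell-like cells 373, 212, 171 and 135. In plasmacytoid dendritic cell-like cells it was 136 CPM (104 to 174) in control and 12.9 (7.24 to 21.3) in HCC. Endothelial-like cells did not follow this order: at 693, 205, 238 and 668 CPM, HCC differed from control by a ratio of 0.963 (0.881 to 1.05). Of these cells 73 of 104 in HCC lay in cluster 27, against 37 of 1583 in control, and the part of this was not tested. Over the alternatives the endothelial-like value of HCC against control ran from -0.38 to 0.05, and the other 7 classes stayed below 0. In neutrophil-like cells Egr1 was highest in HCC, at 2330 CPM after 381 and 323 in the AFP libraries, a log2 fold of 2.81 against high-AFP.

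Nr4a1 was highest in monocyte-like cells, outside the neutrophil-like cells, at 311, 182, 135 and 467 CPM in library order. This class joins classical and patrolling monocytes, and its main cluster 2 scored 3.3 and 1.89 for them. The part of their mix in the Nr4a1 levels was not tested. In B-like cells Nr4a1 was 15.0, 26.6, 12.9 and 128 CPM, with HCC well above the rest (log2 2.46 against control). The HCC cells were those of the immunoglobulin-led cluster 14, at 129 CPM, and the control cells mostly those of cluster 13, at 25.1. In T-like cells, also of different clusters, it was 20.8, 28.7, 12.9 and 52.7, and this call against control was lost in 3 of 21 alternatives (lowest 0.54). Nr4a1 is also a reporter of antigen receptor signalling in lymphocytes. In endothelial-like cells it was 67.2, 26.8, 45.4 and 58.3 CPM, and only the low-AFP value was past 2-fold lower. Over 40 pairs of class and library, which share libraries and depth, Nr4a1 and Fos had the highest correlation of any 2 of the genes (Pearson r 0.83 on log2 of CPM plus 10), and Egr1 and Nr4a1 the lowest (0.33). These are descriptions without a test.

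Ier3, a regulator of cell survival, gave the largest shift of a single type in both AFP comparisons. In T-like cells it was 14.9 CPM (9.63 to 22.0), 150.3 (132 to 171), 115 (99.4 to 133) and 392 (381 to 404) in library order. Control lay far below the other 3, with a ratio of 10.1 (6.67 to 15.9) in low-AFP and 7.75 (5.09 to 12.3) in high-AFP. Within T-like cluster 9 alone, with 419, 347 and 446 cells of these 3 libraries, Ier3 was 15.3, 143 and 118 CPM. After thinning to 1000 UMIs per cell, 0.943%, 9.81%, 7.81% and 19.5% of T-like cells had an Ier3 UMI, and unthinned 3.96%, 23.9%, 19.1% and 34.1%. Thinning left out 5, 10, 5 and 56 shallower cells. B-like cells, whose median depth was 2655 to 3723 UMIs against 3423 to 4209.5 in T-like cells, served as background, with thinned shares of 0.8065%, 0, 0.623% and 0.4255%. The 0 among 288 low-AFP cells has an exact upper bound of 1.27%. The control T-like share lay near this background and the other 3 above it. In HCC the T-like cells lay in other clusters, 4 (1587 cells) and 11 (839 of 2448), with Ier3 at 546 and 139.5 CPM.

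In HCC, Ier3 was higher than control in 7 of the 7 classes where it was measured, and in hepatocyte-like cells as named here it passed only with 1 cell described below. In plasmacytoid dendritic cell-like cells it had no UMI in control and 14.7 CPM in HCC, and the fold was 0 with thinned cells. The macrophage-like call was lost in 3 of 21 alternatives, all of them other clusterings, with a lowest log2 fold of 0.09. Macrophage-like cells had 76.9, 74.5, 56.5 and 259 CPM, and conventional dendritic cell-like cells 40.3, 39.5, 24.4 and 148. In endothelial-like cells it was 40.5, 49.1, 68.6 and 262 CPM. Most HCC endothelial-like cells (73 of 104) lay in the Vwf-expressing cluster 27, where Ier3 was 241 CPM in high-AFP and 298 in HCC, whereas clusters 6, 8 and 12 held most of the other libraries. The part of this cluster in the endothelial-like rise was not tested.

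Ier2 was below control in 8 of 8 classes in each AFP library. In macrophage-like cells it was 322, 166, 127 and 149 CPM, so that HCC lay with the AFP libraries. In B-like cells it was 189.6, 177, 131 and 354 CPM. The same held for Dusp1. In macrophage-like cells, where it was past 2-fold lower in both, it was 1018, 447, 341 and 542 CPM. Endothelial-like cells had 1199.9, 708, 602 and 584 CPM, again with control highest. In HCC the immune classes differed from these: T-like cells had 141, 104, 95.7 and 438 CPM and monocyte-like cells 484, 264, 312 and 1007. Dusp1 thus rose in HCC against control in T-like, B-like and monocyte-like cells and fell in endothelial-like and hepatocyte-like cells, a difference between classes that was not tested. The B-like call (1.03) was lost in 8 of 21 alternatives, with a lowest value of 0.44, and the endothelial-like call (-1.03) in 5 of 21, with a value nearest 0 of -0.93. The T-like, B-like and endothelial-like cells of HCC were, as above, mostly of other clusters than those of control.

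**Figure D3:**
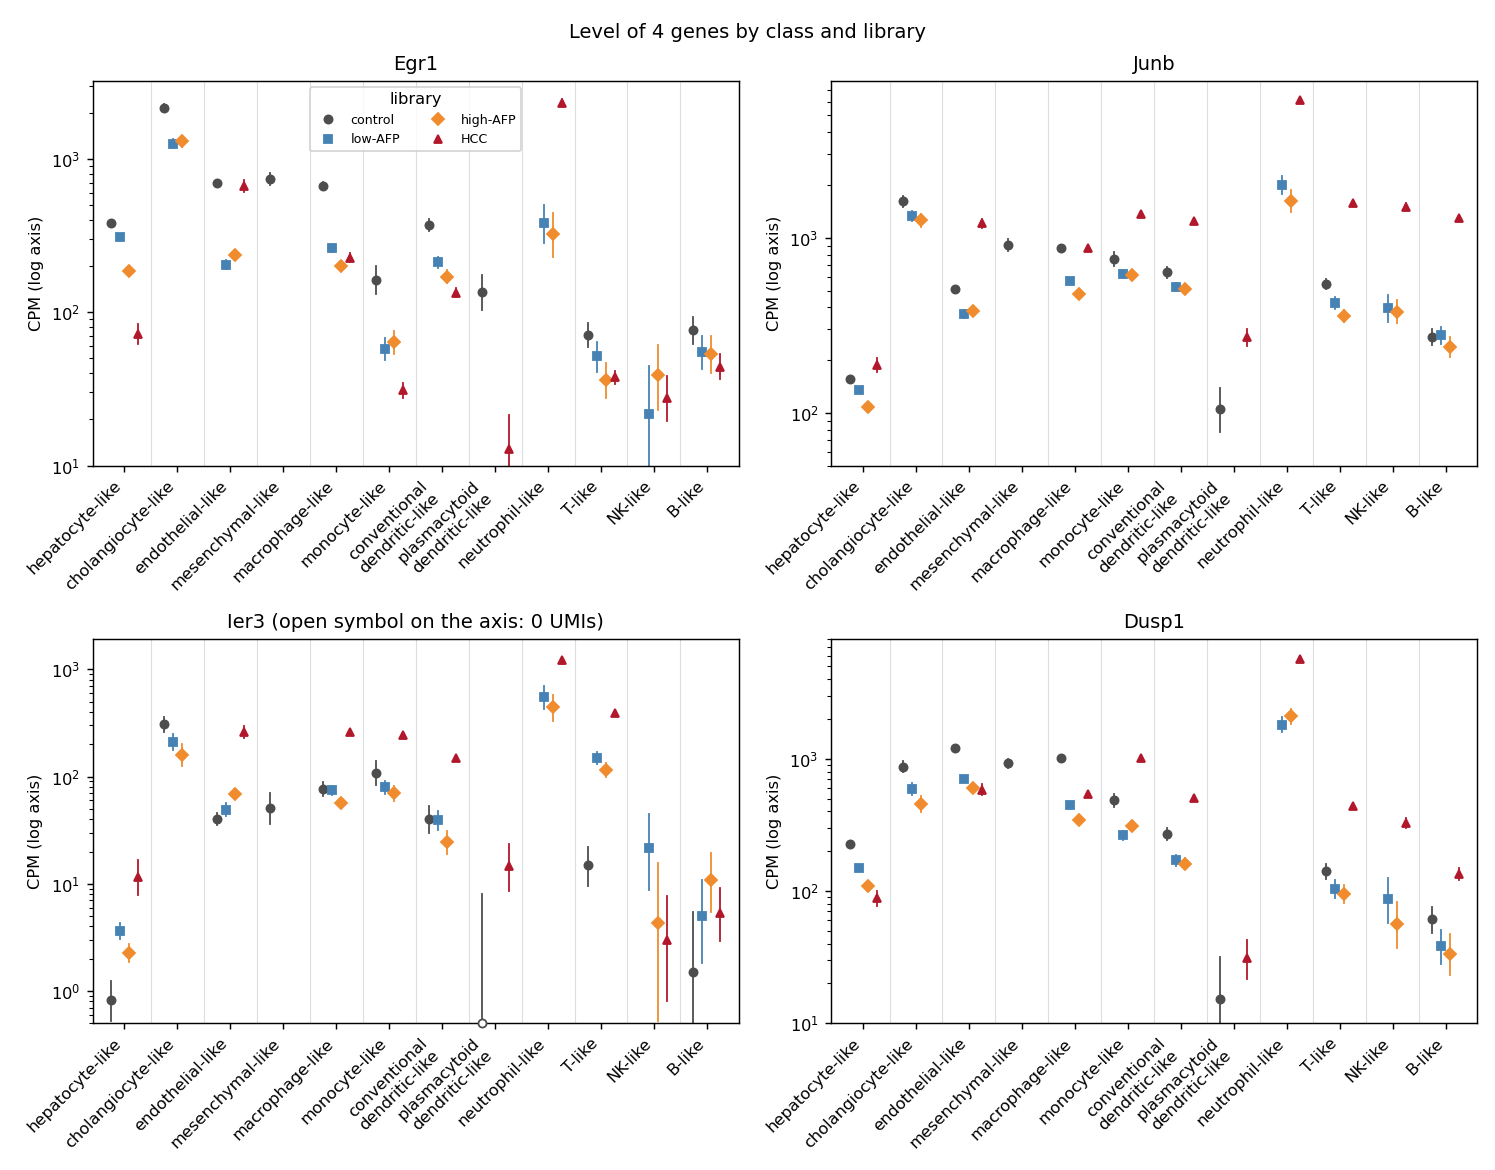
Levels of Egr1, Junb, Ier3 and Dusp1 in CPM (log axis) by class, with 1 symbol per library and lines for the exact 95% Poisson interval. HCC (triangles) is the highest library for Junb in all classes shown for it, lies below control for Egr1, and for Ier3 in T-like cells control (14.9 CPM) lies below the other 3 libraries.

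Among the classes as named here, hepatocyte-like cells were the one in which HCC was lowest against control, but most HCC cells that scored highest for hepatocyte markers were outside this class. It held 414 HCC cells, while cluster 21, set apart as cycling and led by Akr1c18 and Afp, held 319, and the unnamed clusters 23, 33 and 16 held 364, 80 and 49. The summed level in HCC was 745 CPM in cluster 21, 265 in cluster 23 and 5019 in cluster 33, which has Afp and Akr1c18 among its leading genes and a median of 28150.5 UMIs per cell. Cluster 33 had Jun at 1296 CPM, Fos at 933, Egr1 at 596, Atf3 at 287 and Ier3 at 270.1, and at most 604 of its 11133 UMIs of the genes came from 1 cell. With these 4 clusters counted as hepatocyte-like, a choice made after seeing the data, the direction of the summed level turned, from -0.61 to 0.33 against control, and against high-AFP it was 1.22 in place of 0.28. The folds of Fos and Jun against control turned as well, from -0.78 to 0.41 and from -0.42 to 0.69, and Egr1 (-0.63) and Ier2 (-0.36) no longer passed 2-fold, whereas Dusp1 (-1.51) and Nr4a1 (-1.60) stayed past it. Ier3 (3.34), Fosb (2.03), Atf3 (1.38) and Junb (1.17) were past 2-fold higher than control in this wider class. The share of all genes past 2-fold there was not counted. The values that follow are those of the class without these clusters. Egr1 was 382, 312, 185 and 72.5 CPM, and Fos was 296, 199, 104 and 168. Dusp1 was 227, 149, 109 and 88.2 CPM. The 3 libraries outside HCC kept 1 order for these genes, control highest and high-AFP lowest. In HCC Egr1, Ier2, Dusp1 and Nr4a1 were past 2-fold lower than control and Atf3 and Ier3 past 2-fold higher. Of all genes in this class 7.07% were called lower and 11.4% higher. In the class as named here the 2 higher genes of 10 thus lie near the share of all genes.

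The HCC value rests on few cells. The 21 of 414 HCC hepatocyte-like cells highest in the genes gave 74.3% of their UMIs, against 10.04% to 14.9% for the same share of cells in the other libraries. Of 630 Atf3 UMIs in that class 518 were in 1 cell. Without that cell the Atf3 fold against control was -0.49 in place of 1.71, and Ier3 no longer passed (0.94). Without it the summed level of HCC against high-AFP was -0.06 in place of 0.28. Thinned to 1000 UMIs per cell, which leaves out 67 shallower cells, the summed level in HCC was -2.34 against control and -1.21 against high-AFP.

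Several other values moved with this class. Its median depth was 14298, 18634.5, 13813 and 2494 UMIs in library order, its median mitochondrial share 22.0%, 15.8%, 14.9% and 3.435%, and its Alb level, the main hepatocyte marker, 64890, 36799, 19862 and 9913 CPM. The largest cluster was 1 in control (1530 of 2414 cells), 0 in both AFP libraries (734 of 1964 and 1094 of 3299) and 3 in HCC (295 of 414). Within cluster 3 the summed level was 742, 324, 215 and 422 CPM. The part of these values in the result was not tested. With at most 15% mitochondrial UMIs the summed level was -0.65 in low-AFP and -1.50 in high-AFP against control, further from 0 than the -0.26 and -0.89 with all cells.

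Hepatocyte-like cells also held 1 cluster that stood far above the rest. Cluster 20, with Chka, Neat1 and Gdf15 among its leading genes, held 166, 145, 123 and 8 cells in library order. Its summed level was 10309, 10863 and 7514 CPM in the first 3, where the control cells of clusters 0, 1 and 5 had 1715, 1562 and 2011. Over all libraries cluster 20 had a median of 3579.5 UMIs per cell and of 7.5% mitochondrial UMIs. Clusters 0, 1 and 5 had 26118.5, 14668 and 22627 UMIs and 17.5%, 23.1% and 19.9%. The part of depth and mitochondrial share in this gap was not tested. Clustering did not use the genes. In the control cells of cluster 20 Jun was 2603 CPM, Egr1 2112, Ier2 1479 and Fos 1179. Ier3 was the exception, with no UMI in 166 control cells, as elsewhere in hepatocyte-like cells (0.821 CPM in control). Gdf15 is itself a stress response gene. Low-AFP was at 0.08 and high-AFP at -0.46 against control here, while both were below control in clusters 0, 1, 3 and 5.

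**Figure D4:**
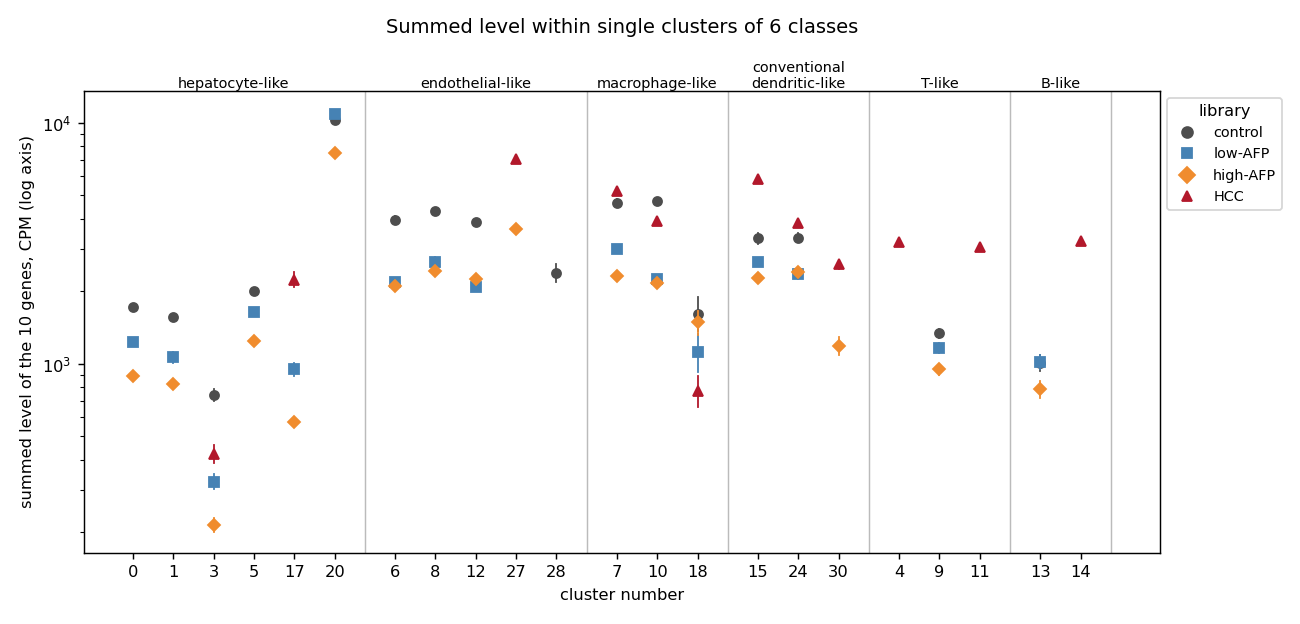
Summed level of the 10 genes in CPM (log axis) within each cluster of 6 classes that held at least 50 cells of a library, with lines for the exact 95% Poisson interval. Both AFP libraries lie below control in hepatocyte-like clusters 0, 1, 3 and 5 and endothelial-like clusters 6, 8 and 12, and hepatocyte-like cluster 20 stands highest, at 10309 CPM in control.

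Per cell, larger shares of the immune classes other than macrophage-like cells held several of the genes in HCC. After thinning to 1000 UMIs per cell, 41.0% (30.01 to 52.75), 33.1% (27.5 to 39.0), 26.4% (21.65 to 31.6) and 75.3% (72.6 to 77.8) of monocyte-like cells had UMIs of at least 3 of the genes. Intervals are exact Clopper-Pearson intervals at 95% and cover counting error only. The monocyte-like interval of HCC overlapped none of the others. T-like cells had 8.255%, 7.08%, 3.905% and 22.4%, and unthinned 48.95%, 45.6%, 27.5% and 66.4%. B-like cells had 3.63%, 8.33%, 2.18% and 29.9%, unthinned 42.0%, 38.9%, 18.8% and 71.3%, with 2, 5, 8 and 19 cells left out. Of the neutrophil-like cells 99.55% had them in HCC, against 73.7% and 74.6% in the AFP libraries, and unthinned 99.1% against 93.0% and 89.8%. Unthinned, the monocyte-like shares were 98.7%, 95.6%, 92.8% and 98.8%, and thinning left out 1 cell of this class. In hepatocyte-like cells the thinned shares were 23.0%, 13.6%, 7.09% and 0.865%, and unthinned 88.5%, 73.3%, 60.9% and 10.9%, with 33, 55, 126 and 67 cells left out. Macrophage-like cells had 58.0%, 30.5%, 25.6% and 43.0%, so that HCC lay below control, and unthinned 73.8%, 77.9%, 77.5% and 55.5%, with 105, 57, 113 and 105 cells left out. In HCC 195 of 503 macrophage-like cells lay in the shallow cluster 18, at 770 CPM, against 5219 in cluster 7.

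**Figure D5:**
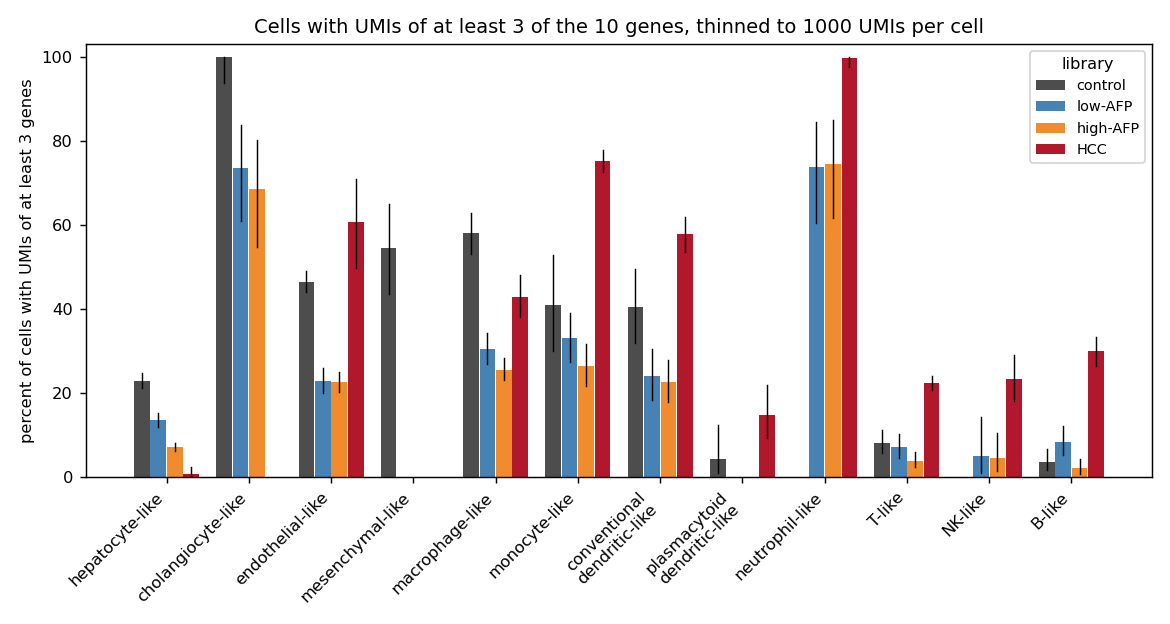
Percent of cells with UMIs of at least 3 of the 10 genes, after thinning each cell to 1000 UMIs, by class and library, with exact 95% binomial intervals. HCC is the highest bar in 8 of its 10 classes, is below control in macrophage-like cells and is lowest (0.865%) in hepatocyte-like cells.

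Free RNA was sized by Alb, a hepatocyte gene. Its level in the other classes was 2.95% to 13.1% of the hepatocyte-like level in control, 2.01% to 6.29% in HCC, and between 2.48% and 19.6% in the AFP libraries. At that rate a leak from hepatocytes would give 2.62% of the Egr1 level of control macrophage-like cells and 3.54% of that of control endothelial-like cells. It would give 41.6% of the Egr1 level of control T-like cells and 9.43% in HCC, and the part of this in the Egr1 fold of T-like cells (log2 -0.77) was not tested. The HCC share uses hepatocyte-like cells as named here and was not redone with the set-apart clusters. Free RNA from other classes was not sized. Barcodes over the mitochondrial limit that passed the gene and UMI limits were left out of all values. Their summed level was 2352, 1947, 1489.97 and 3160 CPM. Barcodes within the limit, before doublets were removed, had 2568, 1888, 1451 and 4526.

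Other genes of the same response, in lists that do not hold the 10 genes, gave further counts. The lists were chosen with results of these data known. Each count stands against the shares of all pairs, higher and lower, which were 3.21% and 6.0% in HCC against control, 2.75% and 6.1% in HCC against high-AFP, 0.874% and 0.829% in low-AFP and 1.21% and 1.21% in high-AFP. Other early response transcription factors, such as the Klf and Nr4a families, were at least 2-fold higher in 20 and lower in 5 of 79 measured pairs of gene and class in HCC against control, with a median log2 fold of 0.40 against -0.06 over all genes. Against high-AFP 35 of 93 were higher and 0 lower, and in high-AFP against control 1 was higher and 8 lower of 72. Nr4a2 in T-like cells, a relative of Nr4a1, was 33.3 CPM in control, 38.65 in high-AFP and 645.5 in HCC. Most HCC T-like cells lay in cluster 4, which has Pdcd1, Tox and Nr4a2 among its leading genes. Those of control and high-AFP lay mostly in cluster 9, and the part of this in the rise was not tested. Egr3, a relative of Egr1, went down with it in conventional dendritic cell-like cells, from 232 CPM in control to 67.8, 37.85 and 41.2 in the other 3. Klf2 in macrophage-like cells was 723, 237, 304 and 314 CPM, highest in control.

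Feedback regulators, which include phosphatases, RNA decay factors and cytokine signalling inhibitors, were higher in 29 and lower in 13 of 162 pairs in HCC against control, and in 42 and 6 of 183 against high-AFP, where 3.21% and 6.0%, and 2.75% and 6.1%, of all pairs were. The lower counts were thus close to or below those shares. Ier5l in T-like cells was 25.0 CPM in control, 18.4 in high-AFP and 257 in HCC, and Socs3 in endothelial-like cells 85.1, 104.5 and 390. AP-1 related factors outside the 10 genes were higher in 11 and lower in 0 of 67 pairs in HCC against control and in 11 and 0 of 77 against high-AFP. Cebpd in endothelial-like cells was 140.3 CPM in control and 662 in HCC, and Batf in T-like cells 52.4 and 162. The T-like and endothelial-like cells of HCC lay, as above, mostly in other clusters than those of control, here and for Ier5l and Socs3. The part of this was not tested. In low-AFP against control the pairs higher and lower were 0 and 2 of 157 for feedback regulators and 0 and 0 of 62 for AP-1 related factors. In high-AFP against control they were 2 and 9 of 160 and 1 and 1 of 62, where 1.21% and 1.21% of all pairs were.

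NF-kB early targets were higher in 19 and lower in 1 of 76 pairs in HCC against control and in 36 and 2 of 89 against high-AFP. In low-AFP 8 were higher and 1 lower of 69, and in high-AFP 5 and 11 of 65. As for Ier3, control was the lowest library for 2 chemokines in T-like cells. Ccl3 was 30.4, 586.5, 461 and 1029 CPM, and Ccl4 was 204, 1838, 1433 and 2351. In B-like cells Ccl4 was highest in high-AFP, at 419.8 CPM against 27.8 in control and 30.4 in HCC.

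Heat shock genes, which respond to misfolded protein, were higher in 19 and lower in 1 of 94 pairs in HCC against control and in 15 and 7 of 109 against high-AFP, the 7 being near the 6.1% of all pairs. In low-AFP 1 was higher and 0 lower of 92, and in high-AFP 5 and 0 of 95. Hspa1a in conventional dendritic cell-like cells was 6.45 CPM in control, 28.5 in high-AFP and 155 in HCC. Hspd1 in neutrophil-like cells went the other way, from 213 CPM in high-AFP to 35.7 in HCC. Of upstream kinases and factors 2 were higher and 1 lower of 97 pairs in HCC against control, 1 and 1 of 106 against high-AFP, and 0 and 0 of 98 in each AFP library, which is near or below the shares of all pairs.

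The genes whose levels were most like the mean of the 10 over 40 pairs of class and library were ranked among 7513 genes. The pairs share libraries and depth, and no test was made. The highest correlations were those of Wsb1 (Pearson r 0.83), Cask (0.82), Npepps (0.79), Tnrc18 (0.79), Zfand5 (0.78), Nfe2l2 (0.78), Cd9 (0.77), Marcksl1 (0.77), Il15 (0.77) and Kdm6b (0.76). Of these, 6 were highest in HCC neutrophil-like cells, among them Kdm6b, a histone demethylase, at 565 CPM and Nfe2l2, the oxidative stress factor, at 499.8 CPM. The others were also highest in neutrophil-like cells, Npepps, Cd9 and Il15 in high-AFP and Marcksl1 in low-AFP. The part of neutrophil-like cells in these correlations was not tested.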

How the data were processed

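Single-cell 3' RNA libraries (kit version 2 per the labels) were deposited as whole-number UMI counts per gene and barcode. The authors ran Cell Ranger (3.0.2 per the file headers), and the submitters' processing notes also name R 3.0, Seurat 3 and the mm9 build. No coordinate of the counts was used. The 10 genes, the lists and most rules were chosen with earlier results of these data known.

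Kept barcodes had 300 or more genes, 500 or more UMIs and no more than 30% of UMIs from mitochondrial genes. Scrublet (scanpy 1.11.5) marked under 0.5% of barcodes in each library, so a fixed rate took out the top-scoring barcodes, at 0.8% per 1000 barcodes: 323, 230, 575 and 513. Counts scaled to 10000 were log-transformed. From 2000 variable genes, without the 10 genes, the lists and mitochondrial genes, 30 components with 15 neighbours were clustered by Leiden (leidenalg 0.10.2, resolution 1), with no integration. Clusters were named from marker lists, with at least 3 markers detected. Classical and patrolling monocytes were joined as monocyte-like. Where the first class led the second by under 0.4 in score, the one with more markers among the 10 leading genes gave the name. This decided cluster 15 alone, which scored 1.63 for classical monocyte and 1.32 for conventional dendritic cell and was named the latter. In all 3 stayed unnamed.

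UMIs were summed per class and library, divided by the nuclear-encoded total and multiplied by 1000000 (CPM). Folds took 10 CPM added to both sides. Called means at least 2-fold with at least 10 CPM in either library. Thinning to 1000 UMIs used seed 1. Named genes are all 10, at most 4 per list with the largest folds in a described class, and the 10 most correlated. The code of the fold rule was tested on simulated data, which bears on the code and not on differences between libraries. The alternatives were other filters, denominators, added counts, clusterings and cell subsets.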

Additional observations from a re-analysis of the deposited data

Results flagged for a closer look

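Some genes were past 2-fold in opposite directions in different classes under 1 comparison. Each value rests on 1 library per group, and the differences between classes were not tested. In HCC against control, Dusp1 was higher in T-like (log2 1.57), monocyte-like (1.04) and B-like cells (1.03) and lower in endothelial-like (-1.03) and hepatocyte-like cells (-1.27). In the same comparison Nr4a1 was higher in B-like (2.46) and T-like cells (1.023) and lower in hepatocyte-like cells (-1.55). In HCC against high-AFP, Egr1 was higher in neutrophil-like (2.81) and endothelial-like cells (1.45) and lower in hepatocyte-like cells (-1.24). Of 21 alternatives, the Dusp1 call was lost in 8 in B-like cells (lowest 0.44) and in 5 in endothelial-like cells (nearest 0 at -0.93), and the Nr4a1 call in 3 in T-like cells (lowest 0.54). With the 4 set-apart clusters that scored highest for hepatocyte counted as hepatocyte-like, the Egr1 fold there was 0.38, while Dusp1 was -1.51 and Nr4a1 -1.60. The B-like, T-like, endothelial-like and hepatocyte-like cells of HCC all lay mostly in other clusters than those of control, and the HCC hepatocyte-like cells were shallower, at a median of 2494 UMIs. The part of these in the differences was not tested.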

How the results depend on the processing

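No paired analysis was possible because each group was 1 library. Under 21 alternatives, of which the higher doublet rate, the left-out clusters and cell and the wider hepatocyte-like class were chosen after seeing the data (as were the values within single clusters), the median over classes of the summed level kept its direction and its side of 2-fold in all 4 comparisons. Against control it ran from -0.44 to -0.34 for the low-AFP library, from -0.70 to -0.59 for the high-AFP one and from 0.66 to 0.93 for HCC, and HCC against high-AFP ran from 1.41 to 1.56. Removing doublets at 0.8% per 1000 in every library was the main setting here and changed nothing.

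Counts of pairs past 2-fold moved by over 1.5 times as follows. Lower pairs in low-AFP (5) were 3 with 50 CPM added and 12 with thinned cells, and higher pairs (1) were 3 with thinned cells. Lower pairs in high-AFP (13) were 22 with at most 15% mitochondrial UMIs, 6 with 50 CPM added, 20 with the mean over cells and 24 with thinned cells. Higher pairs there (1) were 2 with 1 CPM added, without ribosomal protein genes in the total, with thinned cells and with doublets removed at the higher rate. Lower pairs in HCC against control (10) were 16 at resolution 0.5 and at resolution 2. Lower pairs in HCC against high-AFP (1) were 2 with 1 CPM added and at resolution 0.5, 0 with 50 CPM added and with the wider hepatocyte-like class, 4 with the mean over cells, without the 5% of cells highest in the genes and at resolution 2, and 5 with thinned cells. The cause was not tested.

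Among 8440 alternative values of single folds, 9 reversed a called direction, 156 fell short of 2-fold where the main value passed it, and 183 newly passed it. The 8440 include folds not called in the main setting, which could not reverse by this rule, and the doublet setting equal to the main one. They are thus no measure of how steady the calls were. Atf3 in hepatocyte-like cells in HCC against control was -1.49 with the mean over cells, -1.31 thinned, -1.94 without the 5% of cells highest in the genes and -0.49 without the 1 cell with most UMIs. Against high-AFP it was -0.24 with the mean over cells and -0.997 without that 5%. Fosb there was -0.35 without that 5%, and Egr1 0.38 with the 4 set-apart clusters that scored highest for hepatocyte counted in the class. The summed level of macrophage-like cells in HCC against high-AFP was -0.94 within cluster 18, whose cells had a median of 974 UMIs. With 1 library per group, counting error is the only error that can be given, and classes under 50 cells could not be described.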
